A study of Rhinolophus ferrumequinum with 8 samples.

Results

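The spleen of wild female greater horseshoe bats (Rhinolophus ferrumequinum) was compared between the winter active state, 26 h after capture, and the arousal state, 2 h after capture, both in November. The comparison used 4 of the 8 RNA sequencing libraries in the series, 2 labelled as biological replicates in each state. The other 4 libraries came from summer active bats in July and from torpid bats in November, 2 each, and served to estimate the spread and as reference levels. Of 19652 protein-coding genes in the deposited table, the 13542 whose 8-library mean reached 1 were tested. State and time since capture name the same libraries and cannot be told apart, and the labels give neither the age of the bats nor the body temperature. Each library is called by its state and replicate number, as in arousal 1. Levels are the deposited rescaled TPM, a length-corrected measure of transcript abundance, and are given as the value of replicate 1 and then replicate 2. Differences are winter active minus arousal in log2(value + 1), so those of low genes are understated.

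Hibernating bats alternate long bouts of torpor, in which body temperature and metabolic rate fall, with short arousals in which heat production returns the body to its active temperature. Transcription and protein synthesis are largely halted in the cold and resume during rewarming. In hibernating mammals lymphocytes and platelets leave the blood in torpor and come back on arousal. The spleen filters old red cells, holds a reserve of platelets and houses B cells, T cells, natural killer (NK) cells and macrophages. Since whole spleen was sequenced, fewer cells of a type and less RNA per cell cannot be told apart in any value given here.

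The libraries held spleen transcripts throughout, with summed B-cell markers between 958 and 1995 and summed macrophage markers between 16503 and 26459 in the 4 libraries compared. Replicates correlated at r = 0.937 in arousal and 0.959 in winter active across genes on the log2 scale, and genes are not independent replicates. Arousal 1 correlated more closely with winter active 1 and 2, at 0.951 and 0.945, than with arousal 2. Transcripts of other organs also differed between libraries. Summed hepatocyte markers stood at 1551 and 25109.9 in arousal and 97.05 and 56.4 in winter active, pancreatic markers at 54.8 and 1011 in arousal and 39.3 and 165 in winter active, and squamous and gastric epithelium markers at 468 and 693 in arousal and 199 and 2466 in winter active. Arousal 2 had the highest hepatocyte sum and winter active 2 the highest squamous and gastric sum of the 4. In arousal the squamous and gastric sums included the keratins KRT8 (102 and 210.1) and KRT19 (148 and 219). The members GKN1 (0 and 0.183), ATP4B (0 and 0) and KRT4 (0 and 0.025) were at or near 0 there. The part of other-organ transcripts in the other differences was not tested, and each list below was also recomputed without each library in turn.

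No single gene passed the threshold of an adjusted p under 0.05 by limma with Benjamini-Hochberg adjustment, which is 0% of the genes tested (smallest adjusted p = 0.227). At an unadjusted p under 0.05 there were 417 higher genes, 3.08% of those tested, and 321 lower genes, 2.37%. After rescaling each column to a total of 1000000, which moved the median of all genes to -0.22, the same counts were 180 higher and 941 lower. The arousal columns had the smallest totals of all libraries, at 745098 and 780490, against 929456 and 828257 in winter active. Both winter active libraries lay above both arousal libraries in 2455 genes (18.1%) and below both in 2885 genes (21.3%). The log2 difference was above 0 in 6170 genes (45.6%) and below 0 in 7363 (54.4%), with a median of -0.037. That shift moved all genes, and 12 list medians between 0 and 0.17 turned below 0 with it. These were the lists of translation factors, respiratory chain, plasma cell, muscle, endothelial and stromal, NF-kB target, early response, S-phase, mitosis, glucocorticoid-induced, unfolded protein response and cold-responsive genes. Relative to the median of all genes, all 12 stayed above 0 under that rescaling, from 0.033 for glucocorticoid-induced genes to 0.20 for muscle markers. The medians of platelet, NK cell, T-cell, B-cell, interferon-stimulated, antigen presentation and ribosomal protein lists stayed above 0 with no such adjustment, at 0.62, 0.47, 0.33, 0.22, 0.35, 0.12 and 0.33 in turn. The shares of all genes given above are the background for the counts of list members.

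**Figure D1:**
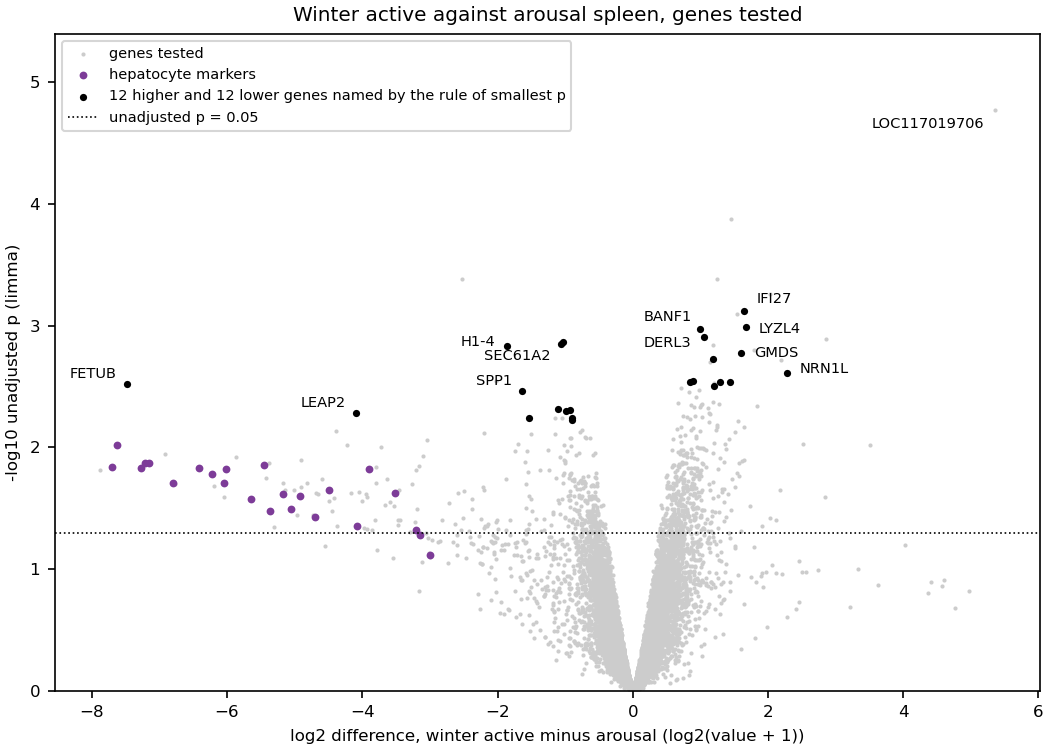
Each point is 1 of 13542 genes tested, with the log2 difference (winter active minus arousal) on the x axis and the -log10 unadjusted limma p on the y axis. Purple points are the 24 hepatocyte markers, all on the lower side, black points are the 24 genes named by the rule of smallest p, and no gene passed the adjusted threshold.

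Of the 12 genes named on the higher side by smallest p, the leading ones included an interferon-induced gene, an endoplasmic reticulum gene of antibody-secreting cells and the chromatin-bridging factor BANF1. IFI27, an interferon-induced protein of mitochondria (NCBI gene 117023335), stood at 180.1 and 196 in arousal and 696 and 499 in winter active (log2 difference 1.64, SE 0.30, unadjusted p = 0.000758). Every winter active value was above every arousal value, and torpor lay between them at 282 and 429. BANF1, which binds DNA and helps to rebuild the nuclear envelope after mitosis, stood at 160.2 and 194 in arousal and 372 and 337 in winter active (log2 difference 1.002, SE 0.19, unadjusted p = 0.00107). DERL3, part of the machinery that removes misfolded proteins from the endoplasmic reticulum, stood at 64.1 and 46.6 in arousal and 121 and 108 in winter active, with torpor at 109.7 and 107. For DERL3 the arousal libraries were the low ones, since winter active and torpor covered nearly the same range. Its unadjusted p was 0.00123. LYZL4, a lysozyme-like gene, stood at 11.3 and 12.4 in arousal and 48.8 and 32.4 in winter active, and torpor at 8.83 and 12.04 was as low as arousal (difference 1.67). GMDS, the first enzyme of GDP-fucose synthesis, stood at 8.22 and 5.72 in arousal and 31.4 and 16.7 in winter active (difference 1.60). MGMT, which repairs alkylated guanine in DNA, stood at 9.71 and 4.61 in arousal and 22.2 and 17.8 in winter active (difference 1.43). For both GMDS and MGMT the torpor values, 5.86 and 7.65 and 7.103 and 6.92 respectively, lay in or near the arousal range, and the summer active values were 29.3 and 26.8 for GMDS and 29.03 and 35.9 for MGMT. NRN1L, a neuritin-like gene, stood at 3.48 and 2.66 in arousal and 23.9 and 14.6 in winter active (difference 2.29) and was far higher in summer active, at 172 and 253. The remaining 5 of the 12 were the small GTPase RAC3 (difference 1.19), CUTA (0.88), PARM1 (0.84), LRMDA (1.30), named for its role in melanocyte differentiation, and GHDC (1.21). All 12 had an adjusted p of 0.825 (limma), and all 12 kept their sign in each of the 18 alternative fits. The naming rule required no overlap, so the sign could turn only in fits that rescaled or normalized the values.

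The 12 genes named on the lower side included receptors for inflammatory cytokines, the matrix protein osteopontin and genes of the endoplasmic reticulum and mitochondria. IL1R1, the signalling receptor for interleukin 1 (NCBI gene 117033297), stood at 24.9 and 29.5 in arousal and 12.3 and 15.3 in winter active (log2 difference -0.93, SE 0.23, unadjusted p = 0.0049). OSMR, the receptor chain for oncostatin M, stood at 24.99 and 22.9 in arousal and 8.96 and 12.4 in winter active (difference -1.11). In both receptors the arousal libraries were the high ones, with torpor at 11.3 and 9.91 for IL1R1 and 10.4 and 16.6 for OSMR. The interleukin 1 co-receptor IL1RAP and the transcription factor STAT3, which acts downstream of oncostatin M, were chosen after their values were seen. IL1RAP stood at 9.09 and 10.6 in arousal and 4.43 and 5.104 in winter active (difference -0.91), and STAT3 stood at 135 and 112 in arousal and 66.9 and 83.6 in winter active (difference -0.71). SPP1 encodes osteopontin, a secreted phosphoprotein of macrophages and matrix, and stood at 79.7 and 96.9 in arousal and 27.02 and 28.4 in winter active (log2 difference -1.63, SE 0.38, unadjusted p = 0.00346). SERPINE2, an inhibitor of serine proteases, stood at 46.6 and 63.6 in arousal and 21.8 and 14.95 in winter active (difference -1.54). Torpor stood at 91.1 and 42.9 for SPP1, above both winter active values, and at 53.9 and 45.1 for SERPINE2, close to arousal. The ceramidase ACER2, which releases sphingosine from ceramide, stood at 16.98 and 20.3 in arousal and 9.64 and 8.15 in winter active (difference -0.99). At 26 h ACER2 was still above torpor (4.13 and 3.07) and summer active (2.602 and 2.06) in both libraries. The linker histone H1-4, which packs nucleosomes, stood at 7.87 and 6.58 in arousal and 0.846 and 1.79 in winter active (difference -1.85), against 24.2 and 12.96 in torpor. H1 genes have near-identical copies, so this value is uncertain. SEC61A2, a subunit of the protein channel of the endoplasmic reticulum, stood at 19.5 and 18.9 in arousal and 7.88 and 9.96 in winter active (log2 difference -1.04, SE 0.21, unadjusted p = 0.00135). CHCHD10, a protein of the mitochondrial intermembrane space, stood at 184 and 184 in arousal and 79.3 and 97.7 in winter active (difference -1.06). The phosphatase regulator PPP1R10 and the ubiquitin ligase WWP1 differed by -0.90 and -0.90. The last 2 of the 12, FETUB and LEAP2, are products of hepatocytes. FETUB stood at 94.98 and 1262 in arousal and 2.505 and 0.0817 in winter active. LEAP2 stood at 7.76 and 32.0 in arousal and is listed at 0 in both winter active libraries. Both were highest in arousal 2, as the hepatocyte markers were. All 12 had an adjusted p of 0.825 (limma).

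**Figure D2:**
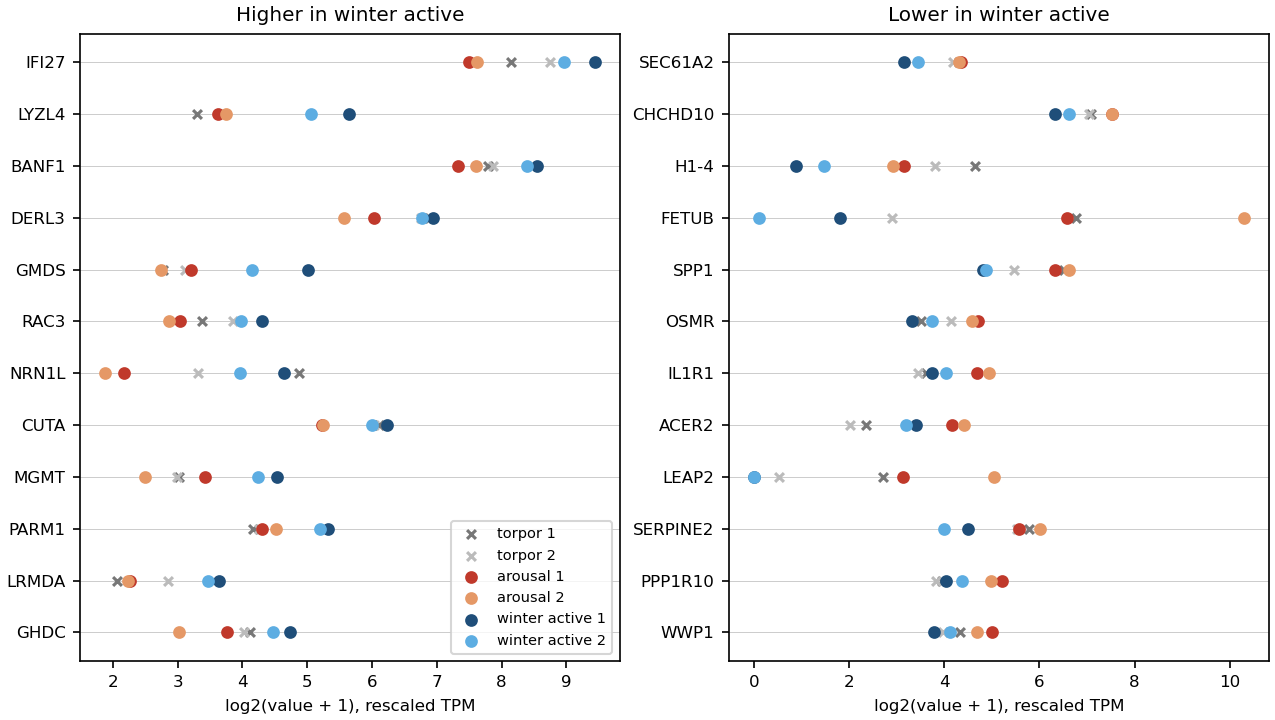
Levels of the 12 genes with the smallest p in each direction, as log2(value + 1) of rescaled TPM on the x axis, with 1 symbol per library (circles arousal and winter active, crosses torpor). By the naming rule, the 2 winter active circles lie on one side of the 2 arousal circles in each gene. Torpor lies near arousal for LYZL4 and GMDS and near winter active for CUTA and IL1R1.

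Genes of the translation machinery did not share 1 direction. Cytosolic ribosomal protein genes, which encode the protein part of the ribosome, had a difference above 0 in 74 of 77 tested members, with a median of 0.53 against -0.037 over all genes. In 62 of them both winter active libraries lay above both arousal libraries (18.1% over all genes), and in 2 both lay below (21.3%). RPL3 stood at 55.1 and 54.2 in arousal and 106 and 75.6 in winter active (log2 difference 0.70, SE 0.21, unadjusted p = 0.0114). RPS28 stood at 597 and 515 in arousal and 1037 and 723 in winter active (difference 0.64), and RPL30 stood at 946 and 941 in arousal and 1410.5 and 1505 in winter active (difference 0.63). These 3 were the members with the smallest p for winter active against arousal, a pick that favours low arousal values. In them torpor was above arousal in every library, at 92.8 and 92.2, 849 and 909.8 and 1386 and 1779 in turn. The level of the list in each library, given as the median over members of the log2 distance from their own mean in 8 libraries, was -0.64 and -0.30 in arousal, 0.18 and -0.16 in winter active, and 0.20 and 0.21 in torpor. Arousal 1 was therefore the lowest library and the 2 arousal libraries did not overlap the others of November. The 3 members below 0, outside the naming rule, were RPL9 (-0.44), RPL32 (-0.31) and RPS20 (-0.038), and 14 members had an unadjusted p under 0.05. Without arousal 1 the median was 0.34 with 71 members above 0, without winter active 1 it was 0.35, and under quantile normalization the median relative to all genes was 0.15. Many ribosomal protein genes have processed copies that can split reads, so single values are uncertain.

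Ribosome biogenesis genes, which make and process ribosomal RNA in the nucleolus, lay mostly below 0. Their median was -0.23, with 21 of 29 members below 0. Both winter active libraries lay below both arousal libraries in 14 (21.3% over all genes) and above both in 0 (18.1%). RRP12, a ribosome export factor, stood at 18.9 and 15.6 in arousal and 9.14 and 10.1 in winter active (difference -0.78, unadjusted p = 0.00744), the nucleolar helicase DDX21 stood at 76.5 and 61.5 in arousal and 48.2 and 54.2 in winter active (-0.42), and UTP20 differed by -0.48. Without arousal 1 or winter active 1 the median was -0.13 or -0.15. Translation factors had a median of 0.084 with 24 of 39 above 0, and 0.056 without arousal 1. Their members differed among themselves, with the elongation factor EEF1A1 at 809 and 851 in arousal and 1803 and 1210.0 in winter active (0.83) and EIF3L, a subunit of an initiation complex, at 183 and 171 in arousal and 254 and 253 in winter active (0.51). The initiation scaffold EIF4G1 was on the other side, at 98.5 and 73.2 in arousal and 54.05 and 61.3 in winter active (-0.55).

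Respiratory chain genes, whose products carry electrons and make ATP in mitochondria, had a median of 0.17 and 36 of 51 members above 0. NDUFA2, NDUFA13 and NDUFC2, all of complex I, differed by 0.43, 0.61 and 0.46. The median was 0.0085 without arousal 1, 0.32 without arousal 2 and 0.10 without winter active 1. Proteasome genes had a median of -0.045, with 14 of 33 above 0, close to the share over all genes. It was -0.15 and 0.054 without arousal 1 and 2, and 0.011 and -0.068 without winter active 1 and 2. PSMD1 of the regulatory cap differed by -0.35 and the catalytic subunit PSMB6 by 0.34.

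Interferon-stimulated genes, which serve antiviral defence, had higher values at 26 h in most members. Of 42 tested, 37 had a difference above 0, and the median was 0.55. In 26 members both winter active libraries lay above both arousal libraries (18.1% over all genes). IFI44L stood at 18.1 and 19.7 in arousal and 92.7 and 35.9 in winter active (log2 difference 1.56, SE 0.41, unadjusted p = 0.00602), IFI6 stood at 87.6 and 70.3 in arousal and 326 and 163 in winter active (difference 1.55), and PARP9 stood at 16.5 and 16.8 in arousal and 33.1 and 23.3 in winter active (difference 0.71). Winter active 1 was the highest of the 4 libraries in each of them. The effectors OAS2, ISG15, MX1 and RSAD2 differed by 2.04, 1.91, 1.005 and 1.08, while IFIT2 and IFIT3 differed by -0.83 and -0.40. These 6 were chosen after their values were seen. The level of the list was -0.0027 and -0.34 in arousal, 0.73 and 0.025 in winter active, and 0.046 and 0.16 in torpor. Without winter active 1 the median was 0.26 with 30 members above 0, and without arousal 2 it was 0.50 with 33. An unadjusted limma p under 0.05 was found on the higher side in 10 members (3.08% over all genes) and on the lower side in 0 (2.37%).

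Antigen presentation genes, which load peptides for display to T cells, had a median of 0.32 and 15 of 18 members above 0. B2M, the constant chain of class I molecules, stood at 2372 and 1732 in arousal and 3585 and 3115 in winter active (difference 0.72, unadjusted p = 0.0407). PSME2 and PSME1, which activate the immunoproteasome, differed by 0.45 and 0.43. In torpor B2M had stood at 3462 and 5062, so the arousal libraries were the lowest of the November libraries. The median was 0.49 and 0.22 without arousal 1 and 2, and 0.11 and 0.55 without winter active 1 and 2.

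Lymphocyte markers were mostly higher at 26 h, but with differing dependence on single libraries. Summed T-cell markers were 0.0492% and 0.0328% of the column total in arousal and 0.0597% and 0.0444% in winter active. Summed B-cell markers were 0.214% and 0.123% in arousal and 0.215% and 0.180% in winter active, so the states overlapped in both shares. T-cell markers had a difference above 0 in 20 of 20 tested members and a median of 0.52. In 9 members both winter active libraries lay above both arousal libraries (18.1% over all genes). The co-stimulatory receptor ICOS stood at 5.69 and 5.05 in arousal and 15.7 and 11.6 in winter active (log2 difference 1.19, SE 0.43, unadjusted p = 0.0261), and the inhibitory receptor CTLA4 stood at 3.001 and 1.19 in arousal and 6.11 and 4.03 in winter active (difference 1.01). CD5, a surface receptor of T cells, stood at 10.7 and 7.19 in arousal and 17.7 and 13.8 in winter active (difference 0.76). The median was 0.21 without winter active 1 (with 14 above 0), 0.27 without arousal 2, 0.85 without arousal 1 and 0.82 without winter active 2. B-cell markers had 20 of 21 above 0 and a median of 0.42. VPREB3, a chaperone of the pre-B-cell receptor, stood at 31.6 and 23.5 in arousal and 51.1 and 47.5 in winter active (log2 difference 0.83, SE 0.20, unadjusted p = 0.00351), and the receptor TNFRSF13B stood at 44.3 and 39.1 in arousal and 111 and 66.5 in winter active (difference 1.03). The B-cell receptor chain CD79B stood at 182 and 173 in arousal and 379.9 and 205 in winter active (difference 0.65), far under its summer active values of 1074 and 916. Without arousal 2 the B-cell median was 0.069 with 11 members above 0, and without arousal 1 it was 0.76. Arousal 2 was also the library richest in hepatocyte markers, whose part in this was not tested. LTB, a lymphotoxin chain of lymphocytes chosen after its values were seen, stood at 20.1 and 12.4 in arousal and 45.4 and 34.2 in winter active (difference 1.27).

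NK cell markers, which are shared with cytotoxic T cells, had 19 of 20 members above 0 and a median of 0.64. On the higher side 14 members did not overlap (18.1% over all genes). The chemokine CCL5 stood at 45.3 and 18.9 in arousal and 111 and 78.7 in winter active (log2 difference 1.64, SE 0.50, unadjusted p = 0.0126), and the granzymes GZMK and GZMA stood at 6.76 and 7.78 in arousal and 17.01 and 32.6 in winter active and at 21.5 and 25.1 in arousal and 37.96 and 57.7 in winter active (differences 1.57 and 0.98). GNLY, a pore-forming granule protein outside the naming rule, was the 1 member below 0, with a difference of -0.61. The list level was -0.52 and -0.67 in arousal, 0.13 and 0.0073 in winter active, and 0.56 and -0.13 in torpor, so both arousal libraries were under all other November libraries. The median ranged from 0.37 without winter active 1 to 0.77 without arousal 1. Plasma cell markers had a median of 0.15 with 12 of 14 above 0. The chaperone MZB1 stood at 152 and 82.4 in arousal and 389 and 189 in winter active (difference 1.27) and FKBP11 stood at 25.1 and 28.4 in arousal and 73.8 and 40.2 in winter active (difference 1.002). Their median was 0.32 and 0.31 without arousal 1 and 2, and 0.17 and 0.43 without winter active 1 and 2. Members above 0 then numbered 10, 9, 9 and 11 in turn. Dendritic cell markers had 12 of 13 above 0 and a median of 0.41. Their summed share of the column total overlapped between the states, at 0.0531% and 0.0497% in arousal and 0.0600% and 0.0477% in winter active. The maturation marker LAMP3 stood at 5.64 and 5.69 in arousal and 11.4 and 11.4 in winter active (difference 0.90) and CLEC9A, a receptor for dead cells, differed by 0.52. Without winter active 1 the median was 0.22, with 7 members above 0, and without winter active 2 it was 0.63.

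Platelet markers had the largest median on the higher side among the 39 lists, 0.77, with 15 of 18 members above 0. On that side 13 members did not overlap (18.1% over all genes). TUBB1, the tubulin of platelets, stood at 9.57 and 7.800 in arousal and 29.00 and 22.2 in winter active (log2 difference 1.45, SE 0.55, unadjusted p = 0.0325). GP1BB, a chain of the von Willebrand factor receptor, stood at 2.44 and 1.34 in arousal and 8.95 and 4.85 in winter active (difference 1.43), and the collagen receptor GP6 stood at 2.48 and 1.92 in arousal and 5.86 and 5.03 in winter active (difference 1.01). THBS1 and NFE2, chosen after their values were seen, were on the other side, with differences of -0.65 and -0.51. The list level was -0.39 and -0.62 in arousal, 0.62 and 0.073 in winter active, and 0.89 and -0.093 in torpor. As a share of the column total, summed platelet markers were 0.0437% and 0.0293% in arousal and 0.0471% and 0.0392% in winter active. In torpor that share was 0.0512% and 0.0271%. The list median was 0.54 without winter active 1 and 1.08 without winter active 2. Erythroid markers had a median of 0.24 with 24 of 30 above 0, and were low in both states: they summed to 294 and 286 in arousal and 415 and 293 in winter active, against 7262 and 10645 in summer active. The heme synthesis gene ALAS2 stood at 0.0419 and 0.941 in arousal and 22.98 and 0.218 in winter active, and the globin chaperone AHSP at 0.633 and 1.097 in arousal and 7.21 and 1.56 in winter active. Among the 4 libraries compared winter active 1 held the highest value of both, and without it the list median was 0.067. KEL, a red cell surface protein, stood at 6.04 and 3.04 in arousal and 26.8 and 8.05 in winter active (difference 1.57).

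Neutrophil, macrophage and stromal lists gave no common direction. Neutrophil markers had a median of -0.15 with 7 of 17 above 0, and that median turned to 0.070 without arousal 2 and 0.18 without winter active 2. It was -0.64 without arousal 1 and -0.62 without winter active 1. The calprotectin chain S100A8 stood at 216 and 895 in arousal and 346 and 273 in winter active, a range within arousal that covered both winter active values. Macrophage markers had 12 of 25 above 0 and a median of -0.018, which was 0.33 and -0.23 without arousal 1 and 2, and -0.13 and 0.26 without winter active 1 and 2. The scavenger receptor MARCO stood at 128 and 76.9 in arousal and 238 and 158 in winter active (difference 0.96), and the heme-degrading enzyme HMOX1 at 2886 and 952 in arousal and 1531 and 1183 in winter active. Endothelial and stromal markers had a median of 0.083, which was -0.021 without winter active 1, 0.20 and 0.13 without arousal 1 and 2, and 0.13 without winter active 2. The list held the lymphatic and sinus receptor LYVE1 at 6.53 and 11.3 in arousal and 14.7 and 19.7 in winter active (0.90) and the collagen chain COL1A1 at 7.79 and 3.53 in arousal and 2.604 and 2.22 in winter active (-0.89).

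**Figure D3:**
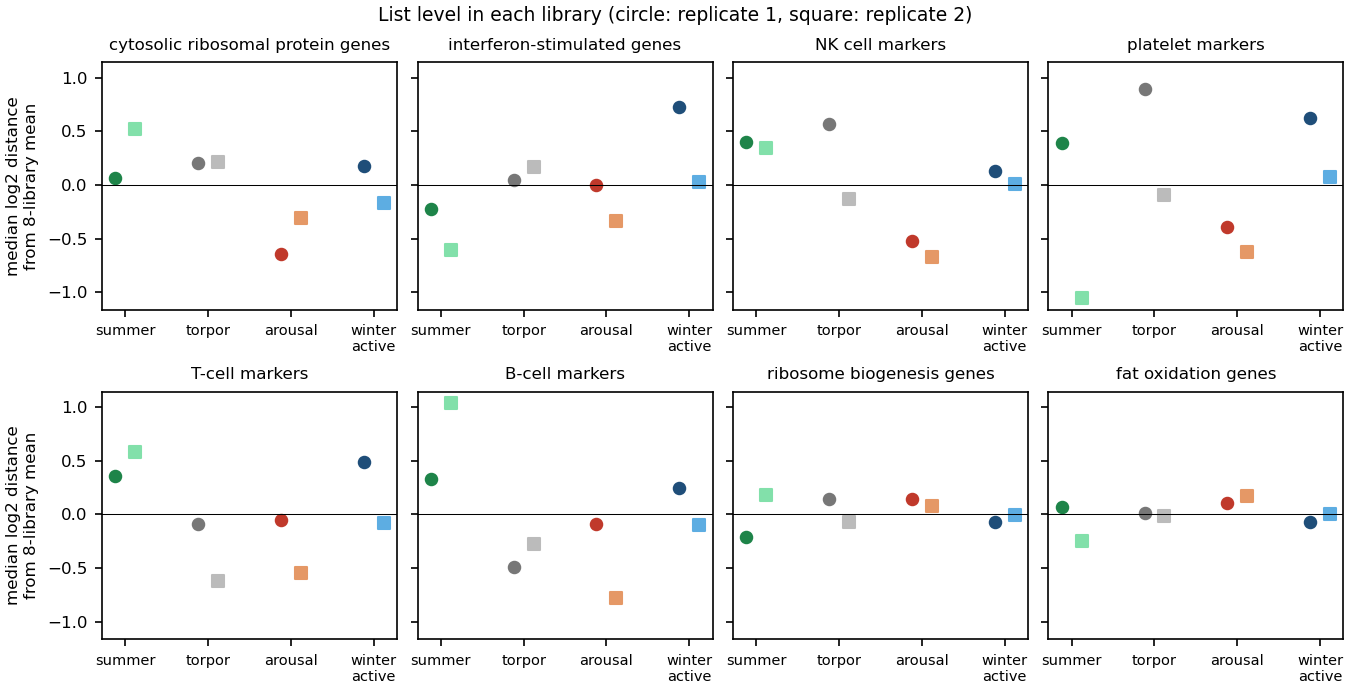
Level of 8 gene lists in each of the 8 libraries, as the median log2 distance of members from their 8-library mean (y axis) by state (x axis), circles for replicate 1 and squares for replicate 2. Arousal is the lowest November state for ribosomal protein genes, NK cell markers and platelet markers in both replicates, while the B-cell squares and circles of arousal and winter active differ mainly through arousal 2 at -0.78. These levels were not rescaled to a common column total. As a share of that total, summed platelet markers in arousal overlapped both torpor and winter active.

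Stress, clock and cold-responsive genes showed no shared direction between 2 h and 26 h. Early response genes, switched on within minutes by stimuli, had a median of 0.041 with 16 of 28 above 0. It was 0.27 and -0.14 without arousal 1 and 2, and 0.022 and 0.11 without winter active 1 and 2. FOS stood at 5.37 and 3.38 in arousal and 2.15 and 4.21 in winter active, EGR1 at 16.2 and 12.6 in arousal and 11.4 and 24.9 in winter active, and the states overlapped in both. MAFF stood at 18.7 and 30.1 in arousal and 11.4 and 15.4 in winter active (difference -0.79) and MYC at 55.1 and 58.6 in arousal and 81.2 and 70.5 in winter active (difference 0.41), without overlap. Heat shock chaperones had a median of -0.27, with 17 of 25 members below 0. The median was 0.071 without winter active 1 and -0.023 without arousal 1. The cytosolic chaperones HSPA8 and DNAJB1 stood at 809 and 517 in arousal and 700.0 and 728 in winter active and at 76.1 and 45.98 in arousal and 47.8 and 50.1 in winter active. The small chaperone CRYAB went against the list, at 214 and 154 in arousal and 590.1 and 309.5 in winter active (difference 1.23, unadjusted p = 0.00723). Unfolded protein response genes had 11 of 22 above 0 and a median of 0.021, which ranged from -0.044 without arousal 2 to 0.16 without arousal 1 and was -0.043 and 0.072 without winter active 1 and 2. The chaperone HSPA5 stood at 378 and 213 in arousal and 288 and 308 in winter active. Integrated stress response genes, controlled by ATF4, had 11 of 25 above 0 and a median of -0.067. That median was 0.026 and -0.15 without arousal 1 and 2, and 0.00029 and 0.018 without winter active 1 and 2. ATF4 itself stood at 214 and 259 in arousal and 321 and 308 in winter active (difference 0.42). CTH, a cysteine-making enzyme abundant in liver, stood at 5.41 and 18.3 in arousal and 2.82 and 2.87 in winter active and was highest in arousal 2.

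Circadian clock genes had a median of -0.059 with 10 of 22 above 0. It was -0.20 and 0.094 without arousal 1 and 2, and -0.14 and -0.18 without winter active 1 and 2. The repressor CRY1 stood at 16.8 and 22.3 in arousal and 7.000 and 11.97 in winter active (log2 difference -0.9997, SE 0.40, unadjusted p = 0.0381) and PER3 at 6.05 and 6.42 in arousal and 2.86 and 3.97 in winter active (difference -0.72). PER1 stood at 15.6 and 16.4 in arousal and 21.2 and 13.1 in winter active, NR1D1 at 11.8 and 21.9 in arousal and 22.6 and 20.5 in winter active and the output factor DBP at 15.7 and 14.4 in arousal and 15.6 and 15.7 in winter active, all with overlap between the states. Glucocorticoid-induced genes had 10 of 20 above 0 and a median of 0.0082, which was -0.022 and 0.16 without arousal 1 and 2, and -0.17 and 0.14 without winter active 1 and 2. FKBP5, a co-chaperone of the receptor, stood at 171 and 213 in arousal and 170.1 and 153 in winter active against 91.4 and 95.98 in torpor. TSC22D3, another target of the receptor, stood at 229 and 306 in arousal and 306 and 235 in winter active. Cold-responsive RNA binding and splicing kinase genes had a median of 0.032, which was -0.14 and 0.10 without winter active 1 and 2 and -0.0064 without arousal 2. CIRBP stood at 260.1 and 255 in arousal and 299.9 and 231 in winter active and RBM3 at 313 and 464 in arousal and 469.5 and 459 in winter active, both overlapping. Of genes that were high at 2 h relative to torpor, the kinase HIPK3 stood at 59.6 and 67.2 in arousal and 40.7 and 58.9 in winter active and the regulator CREBRF at 16.1 and 16.9 in arousal and 11.1 and 15.4 in winter active, against 13.3 and 15.4 and 4.598 and 3.79 in torpor. Differences from torpor share the arousal libraries with the comparison made here and are given as levels only.

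Inflammatory NF-kB target genes had 14 of 24 above 0 and a median of 0.084, which was 0.38 without arousal 1, -0.37 without arousal 2 and -0.013 without winter active 2. The cytokine TNF was higher in both winter active libraries, at 2.52 and 1.799 in arousal and 7.56 and 9.75 in winter active (log2 difference 1.61, SE 0.49, unadjusted p = 0.0129), while the receptors IL1R1 and OSMR described above were lower. The chemokine CXCL10 stood at 79.2 and 94.9 in arousal and 119 and 135 in winter active (difference 0.54) and the inhibitor NFKBIA at 289.9 and 291 in arousal and 354 and 389 in winter active (difference 0.35).

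Fat oxidation genes, some of them abundant in liver, had 21 of 26 members below 0 and a median of -0.27. On the lower side 12 members did not overlap (21.3% over all genes). PDK4, which closes the entry of carbohydrate into mitochondria, stood at 239 and 157 in arousal and 103 and 119 in winter active (log2 difference -0.80, SE 0.29, unadjusted p = 0.0253), against 81.7 and 67.9 in torpor. Arousal 1 held the higher arousal value of PDK4, and had fewer hepatocyte transcripts than arousal 2 but more than either winter active library. The part of hepatocyte transcripts in the PDK4 difference was not tested. EHHADH and ETFDH stood at 9.96 and 16.2 in arousal and 7.56 and 7.399 in winter active and at 34.3 and 50.6 in arousal and 18.4 and 33.2 in winter active, each highest in arousal 2. Without arousal 2 the list median was -0.22, and without arousal 1 it was -0.27. Antioxidant genes had 19 of 26 below 0 and a median of -0.13, which was -0.23 without arousal 1. Members above 0 numbered 7 with all libraries and 11 without arousal 2. OSGIN1 stood at 15.4 and 70.5 in arousal and 5.51 and 7.63 in winter active (difference -2.19), high mainly in arousal 2, and NQO1, a quinone reductase, at 3.29 and 6.62 in arousal and 10.6 and 10.6 in winter active (difference 1.02). Cholesterol synthesis genes had 15 of 22 below 0, with a median of -0.093 that was -0.42 without winter active 2, 0.0074 without winter active 1 and -0.18 without arousal 1. Hypoxia and glycolysis genes had a median of -0.088, which was -0.021 without winter active 2 and -0.057 without arousal 2. Lysosome and autophagy genes had a median of -0.090, which was 0.0034 without arousal 1 (with 18 of 35 above 0), -0.18 without arousal 2 and -0.15 without winter active 1. FNIP2, a partner of folliculin in nutrient sensing, stood at 50.9 and 32.2 in arousal and 19.8 and 18.3 in winter active (difference -1.05).

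Proliferation genes differed little as groups. S-phase genes had a median of 0.074 and mitosis genes one of 0.022, with 19 of 32 and 17 of 32 members above 0. The mitosis median was 0.28 and -0.22 without arousal 1 and 2, and -0.066 and 0.060 without winter active 1 and 2. The S-phase median was 0.11 and 0.0096 without arousal 1 and 2 and 0.0056 without winter active 1. MKI67 stood at 10.9 and 3.303 in arousal and 6.13 and 4.65 in winter active, and RRM2, a subunit of the enzyme that makes deoxynucleotides, at 13.4 and 5.83 in arousal and 15.9 and 15.4 in winter active (difference 0.75). Mediator and transcription elongation genes had 23 of 37 below 0, and 11 members did not overlap on the lower side. Over all genes tested these shares were 54.4% and 21.3%. The list median was -0.095. That median was -0.047 without arousal 1 and -0.21 without arousal 2. MED1 and MED13L differed by -0.61 and -0.45. mRNA decay and deadenylation genes had 21 of 33 below 0 with a median of -0.12, which was -0.028 without arousal 1 and -0.23 without arousal 2. The decapping factor DCP1A stood at 14.02 and 10.7 in arousal and 8.71 and 8.71 in winter active, against 3.19 and 3.03 in torpor.

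**Figure D4:**
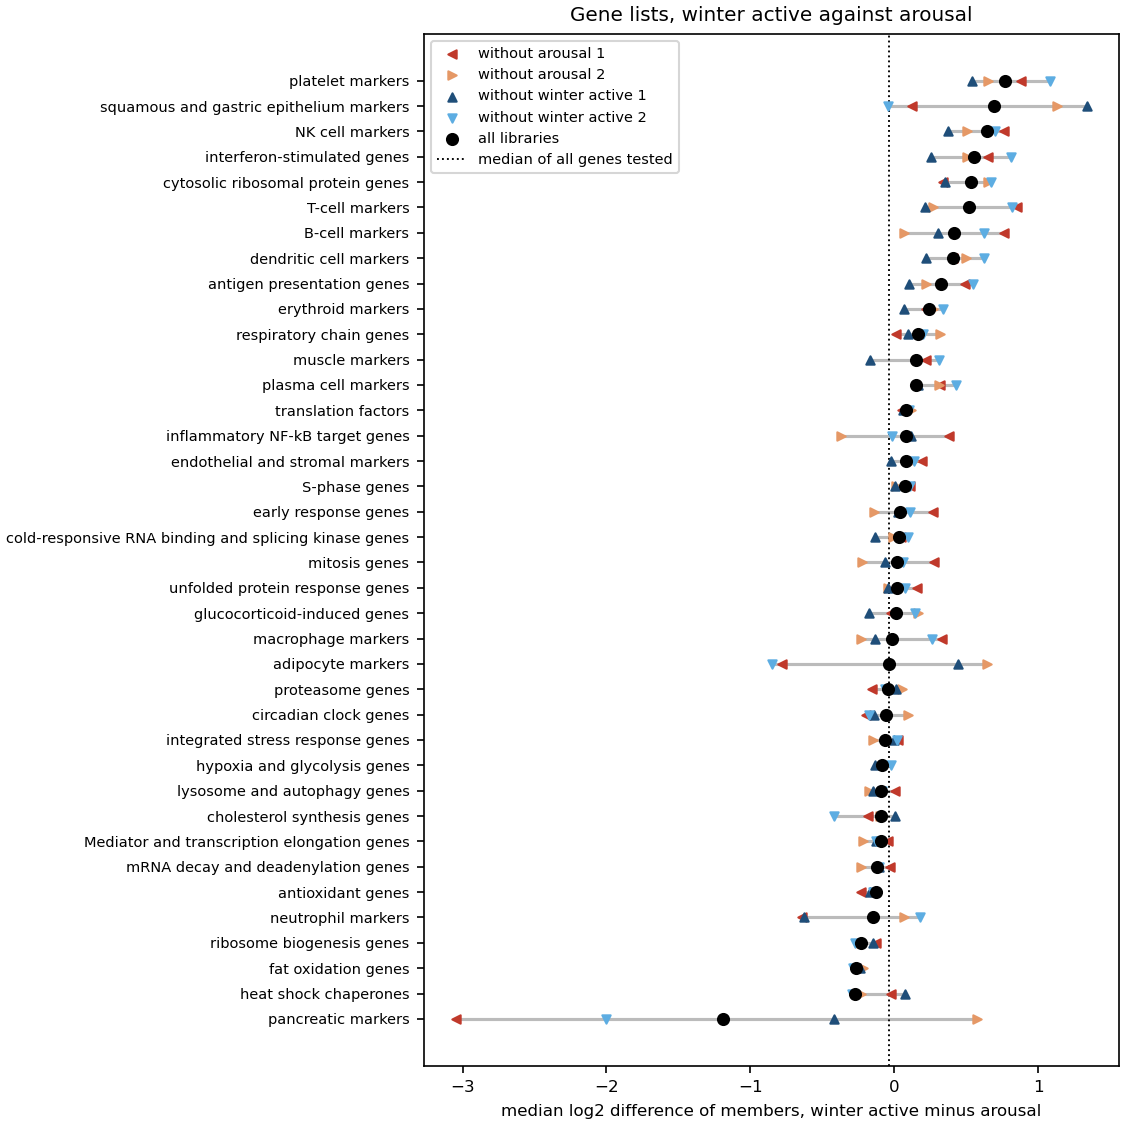
Median log2 difference (winter active minus arousal, x axis) of 38 of the 39 gene lists, with all libraries (black) and without each of the 4 libraries compared (triangles). Hepatocyte markers, at -5.40, are left out for scale, and the dotted line is the median of all genes tested. Platelet, NK cell, interferon-stimulated, ribosomal protein and T-cell lists lie to the right of it with any 1 library left out. So do the B-cell, antigen presentation, dendritic cell, plasma cell, erythroid, translation factor, respiratory chain, S-phase, and endothelial and stromal lists.

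Hepatocyte markers gave the largest differences of any list. All 24 tested members had a difference below 0 and no overlap between the states (21.3% over all genes), with a median of -5.40. An unadjusted limma p under 0.05 was reached by 22 members, against 2.37% of all genes on the lower side. Albumin (ALB), the main plasma protein made by the liver, stood at 603 and 12262 in arousal and 29.5 and 18.6 in winter active (difference -6.80), and the fibrinogen chain FGB at 115 and 1140.2 in arousal and 2.09 and 0.1002 in winter active. The apolipoprotein APOC3 stood at 123 and 1346 in arousal and 6.15 and 0.151 in winter active. In all 3 genes arousal 2 was far above arousal 1. ALB also differed between replicates of the other states, at 378 and 32.1 in torpor and 1077 and 9.78 in summer active. No hepatocyte marker was at 0 in arousal, while 4 of 24 were at 0 in winter active 2. The list median was -3.35 without arousal 2. Pancreatic markers had a median of -1.19 with 12 of 14 below 0. It was 0.58 without arousal 2, -3.05 without arousal 1, and -0.42 and -2.005 without winter active 1 and 2. The digestive enzyme gene CTRC stood at 9.56 and 152 in arousal and 4.36 and 17.2 in winter active. Squamous and gastric epithelium markers had a median of 0.69, which was -0.045 without winter active 2, 0.13 and 1.13 without arousal 1 and 2 and 1.34 without winter active 1. Among them the stomach gene GKN1 stood at 0 and 0.183 in arousal and 0 and 666 in winter active, and the keratins KRT8 and KRT19 stood at 102 and 210.1 in arousal and 13.04 and 71.97 in winter active and at 148 and 219 in arousal and 39.3 and 151 in winter active. The fat hormone ADIPOQ stood at 8.61 and 75.4 in arousal and 12.4 and 81.4 in winter active, so replicate 2 was the high one in both states. Adipocyte markers had 7 of 16 members above 0, and their median moved from -0.78 without arousal 1 to 0.64 without arousal 2, and was 0.44 and -0.85 without winter active 1 and 2. Muscle markers had a median of 0.15 over 10 members, which was -0.17 without winter active 1 (with 4 above 0) and 0.31 without winter active 2.

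**Figure D5:**
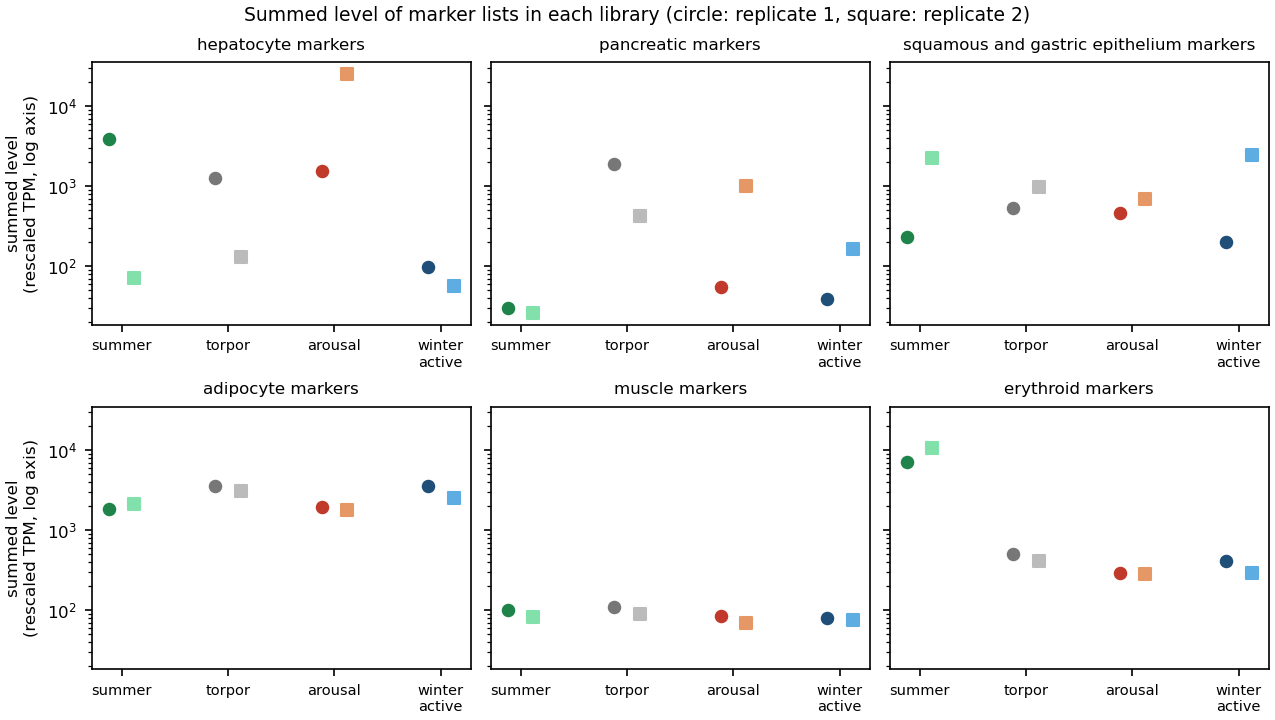
Summed level of 5 other-organ marker lists and of erythroid markers in each of the 8 libraries (y axis, rescaled TPM on a log axis) by state (x axis), circles for replicate 1 and squares for replicate 2. Hepatocyte markers reach 25109.9 in arousal 2 and 1551 in arousal 1 but at most 97.0 in winter active, and erythroid markers are low in all November libraries.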

How the data were processed

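RNA came from whole spleen, with Illumina library protocols, per the labels. The deposited signal is 1 rescaled TPM value per gene and library, as the authors left it. Kallisto 0.46.2 and sleuth 0.30.0 stand in the submitters' processing notes. No source used here names the transcriptome, the gene summing or the rescaling. The test planned for TPM was kept for this signal. Depth is unknown, so no counting interval is given, and a 0 can be a failed estimate.

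All 19652 identifiers matched RefSeq names of assembly mRhiFer1_v1.p, used for names only. Genes with an 8-library mean of at least 1 entered 1 limma 3.58.1 fit (R 4.3.3, eBayes with trend) of log2(value + 1) over all 8 libraries by state, with a Benjamini-Hochberg adjusted p under 0.05 as the threshold. The fit was tested on simulated data. Lists are described by counts and medians, with no set test.

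The members and lists were chosen with earlier results of these data known. The naming rule took, in each direction, the 12 largest differences past the threshold without overlap, a higher-state mean of 5 or more, a symbol and no other-organ list, filled by smallest unadjusted p. Since none passed, p chose all. It added 3 members of each list by p and 31 fixed genes, of which 29 were tested. The promoter search planned was not run, since no sequence was used here.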

Additional observations from a re-analysis of the deposited data

How the results depend on the processing

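No gene passed under 16 of the 18 alternatives. With no filter on low values 2 genes passed, LOC117027746 and LOC117026779, whose values were at most 1.17 in any library, and without winter active 2 there was 1, so fits without 1 library gave 0 to 1. With the replicate block 0 genes passed, and at an unadjusted p under 0.05 there were 507 higher and 355 lower genes. The replicate numbers are not shown to pair the bats: deviations of same-numbered libraries correlated at 0.12 between arousal and winter active, and at -0.19 to 0.32 over all pairs of states. Rescaling each column to 1000000 moved the median of all genes from -0.037 to -0.22 and turned the split at an unadjusted p under 0.05 to 180 higher and 941 lower. With the erythroid and other-tissue lists dropped before rescaling it was -0.24, with 167 and 1101. Without winter active 1 there were 172 and 85, and without arousal 1 there were 283 and 499. List medians are therefore given below relative to the median of all genes. For cytosolic ribosomal protein genes it was 0.57 as reported and 0.15 under quantile normalization. For ribosome biogenesis genes it was -0.19, and -0.22 to -0.10 without 1 library. For antigen presentation genes it was 0.36, and 0.13 to 0.61 without 1 library. For NK cell markers it was 0.68, 0.78 with a pseudocount of 0.1, and 0.39 to 0.80 without 1 library. For platelet markers it was 0.81, and 0.56 to 1.14 without 1 library. For hepatocyte markers it was -5.37, and -7.67 to -3.32 without 1 library.

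Of 167 genes, those taken by the naming rule plus STAT3, IL1RAP and LTB, 148 kept their sign in each alternative that tested them, and none of the 167 passed the threshold in any. In genes without overlap the sign could turn only in fits that rescaled or normalized the values. The sign of the difference turned for 19 that had not passed. It was -0.072 for HSPA8, -0.087 for CIRBP, -0.090 for TSC22D3, -0.068 for HSPA5 under quantile normalization. It was -0.060 for HSPA8, -0.17 for CIRBP, -0.18 for TSC22D3, -0.13 for HSPA5, -0.13 for PER1, -0.14 for DBP after rescaling each column to 1000000. It was -0.083 for HSPA8, -0.19 for CIRBP, -0.21 for TSC22D3, -0.15 for HSPA5, -0.16 for PER1, -0.16 for DBP with erythroid and other-tissue list genes left out as well. Without 1 library in turn it ranged from -1.10 to 0.50 for HMOX1, -0.12 to 0.041 for TXNIP, -0.22 to 4.08 for ALAS2, -1.54 to 0.51 for S100A8, -0.18 to 0.46 for HSPA8, -0.16 to 0.22 for CIRBP, -0.19 to 0.23 for TSC22D3. The range was -0.34 to 0.48 for HSPA5, -0.024 to 0.81 for NR1D1, -0.63 to 0.087 for DNAJB1, -1.05 to 0.0083 for ERRFI1, -0.91 to 0.56 for MKI67, -0.27 to 0.39 for PER1, -0.0059 to 0.11 for DBP. The range was -0.30 to 0.76 for EGR1, -3.88 to 0.17 for SYCN, -1.20 to 1.79 for ADIPOQ, -2.77 to 0.17 for UCP1, -0.12 to 9.26 for GKN1. The cause was not tested. Relative to all genes, 20 of the 39 list medians kept their sign in every alternative. For genes and lists alike, some alternatives left every difference as it was, so no sign could turn in them. These were the fits with only the arousal and winter active libraries, with the replicate block, with robust eBayes, or without a torpor or summer active library.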

Other observations

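The gene with the smallest p of all carries only a locus number, LOC117019706, and was chosen after its values were seen. It stood at 1.33 and 0.598 in arousal and 147 and 41.2 in winter active, against 96.8 and 83.7 in torpor and 69.5 and 95.3 in summer active, so both arousal libraries were the low ones among 8 (log2 difference 5.36, SE 0.54, limma adjusted p = 0.227). Without winter active 2 it was the single gene past the threshold (limma adjusted p = 0.0180).

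Of single genes not described above, the mTOR inhibitor DDIT4, induced by stress hormones and hypoxia, stood at 273 and 321 in arousal and 542 and 332 in winter active (difference 0.52). TXNIP, which restrains glucose uptake, stood at 998 and 1059.6 in arousal and 1058 and 947 in winter active, with overlap. Complement factor D (CFD), made by fat and macrophages, stood at 1624 and 1069 in arousal and 3098 and 1908 in winter active (difference 0.88), against 3053 and 2756 in torpor.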
